A study of Mus musculus with 6 samples.

Results

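The genes described here encode the proteasome, the barrel-shaped protease that degrades ubiquitin-tagged proteins. They were chosen by their symbols: every gene of the count table whose symbol starts with Psm, a letter from a to g and a number was taken. This gave 50 of the 24062 genes in the table, of which 49 are proteasome genes and 1, Psmc3ip, encodes a meiotic recombination factor that shares only the form of the symbol. RNA was sequenced from mouse metaphase II eggs of 3 groups with 2 libraries each, and all groups came from superovulated females, 8 weeks old, of the line HISRainbow;Figla-iCre. The K27R eggs expressed H3.3K27R-mCherry, the histone variant H3.3 with arginine in place of lysine at residue 27. The R26K eggs expressed H3.3R26K-eCFP, with lysine in place of arginine at residue 26. The H3.3 eggs expressed H3.3-eGFP, the unaltered variant, and served as the control. All eggs therefore carried the transgene and an oocyte Cre driven from Figla, and eggs without either were not analysed here. Each histone came with its own fluorescent tag, by which eggs were identified under a confocal microscope, so substitution and tag cannot be told apart. How many eggs or females went into each library is not stated in the sources used here, so the p-values measure the spread between libraries, which may be technical.

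The core particle, 20S, stacks rings of alpha subunits, which gate the barrel, around rings of beta subunits, 3 kinds of which carry the catalytic sites. The regulatory particle, 19S, caps the barrel with a ring of ATPases that unfold substrates and with non-ATPase subunits that bind and remove ubiquitin. Other activators can replace the 19S cap, and dedicated chaperones assemble the rings. A metaphase II egg does not transcribe, so its mRNA is the store laid down during oocyte growth, and protein degradation by the proteasome is known to drive exit from meiosis and the turnover of maternal proteins. In libraries made from whole eggs, fewer eggs with an mRNA and less of it per egg cannot be told apart.

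The 250 bases upstream of the start site are printed for members whose R26K and H3.3 libraries did not overlap and which are described most fully below, except that the window of Psmc6 stops after 214 bases, where an annotated transcript begins. Psme3 lies at chr11:101315963-101316212 on the plus strand, Psmd4 at chr3:95042615-95042864 on the minus strand, Psma7 at chr2:180042465-180042714 on the minus strand and Psmc6 at chr14:45329574-45329787 on the plus strand. The sequences are RefSeq's, in build GRCm38.p6, written in the direction of the gene. Capitals mark CGGAAG, the core of the sites bound by ETS factors, and TGACNNNGC, a form of the antioxidant response element, on either strand.
Psme3: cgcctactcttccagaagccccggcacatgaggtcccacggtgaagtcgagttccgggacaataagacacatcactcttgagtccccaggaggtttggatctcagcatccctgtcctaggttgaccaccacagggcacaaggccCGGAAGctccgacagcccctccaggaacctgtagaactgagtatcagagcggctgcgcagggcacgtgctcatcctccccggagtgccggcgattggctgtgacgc
Psmd4: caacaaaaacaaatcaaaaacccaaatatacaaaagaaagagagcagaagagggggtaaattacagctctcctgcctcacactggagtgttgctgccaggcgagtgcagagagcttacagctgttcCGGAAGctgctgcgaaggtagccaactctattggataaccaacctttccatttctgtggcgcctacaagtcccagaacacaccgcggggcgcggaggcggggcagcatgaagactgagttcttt
Psma7: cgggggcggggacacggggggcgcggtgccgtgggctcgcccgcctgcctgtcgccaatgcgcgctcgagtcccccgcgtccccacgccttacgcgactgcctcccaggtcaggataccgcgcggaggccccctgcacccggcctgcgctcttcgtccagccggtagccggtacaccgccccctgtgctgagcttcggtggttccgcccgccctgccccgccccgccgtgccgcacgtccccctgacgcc
Psmc6: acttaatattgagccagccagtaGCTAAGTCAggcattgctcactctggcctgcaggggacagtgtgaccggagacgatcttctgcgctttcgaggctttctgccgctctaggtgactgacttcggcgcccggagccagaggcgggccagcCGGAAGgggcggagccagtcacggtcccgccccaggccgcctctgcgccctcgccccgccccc
CGGAAG stood once upstream of Psme3, Psmd4 and Psmc6 and not upstream of Psma7, and TGACNNNGC stood once, on the minus strand, upstream of Psmc6. Of the 50 members, 42 had an upstream sequence in the RefSeq table, and Psmd3, Psmb1, Psma8, Psmg2, Psmb7, Psmc3, Psmb2 and Psmd7 had none.

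Over those 42 sequences of 250 bases, 5 motifs were searched on both strands. CGGAAG was found in 20 (47.6%), against 15.3% of all promoters in the table and 29.2% of those of the tested genes. TGACNNNGC was found in 5 (11.9%: Psmb5, Psmb6, Psmc6, Psmd9 and Psmd12), against 11.5% of all promoters and 14.3% of those of the tested genes. CCAAT was found in 15 (35.7%), against 37.5% of all promoters and 41.1% of those of the tested genes. TTTCNNTTC, an interferon response motif, was in 3 (7.14%), against 7.3% and 6.26%. TGACTCAGC, a narrower form of TGACNNNGC, was in none, against 0.426% and 0.384%. A match is a match of letters and says nothing of binding.

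The libraries differed in depth. Total counts were 11557291 and 10803477 in the K27R libraries, 39603440 and 33786225 in the R26K libraries, and 12748821 and 11452906 in the H3.3 libraries. A count of 3, taken as the floor of detection, therefore stood for 0.0813 to 0.284 CPM (counts per 1000000 counts of the library, scaled by trimmed means), for counting error only. Of the 10667 genes with enough counts to test, 90.2% and 66.2% had counts in the K27R libraries, 96.9% and 97.0% in the R26K libraries, and 67.3% and 65.4% in the H3.3 libraries. For the 43 tested members the shares were 100% and 88.4% in K27R, 100% and 100% in R26K, and 79.1% and 93.0% in H3.3. Between 18 and 19 of 20 egg markers had counts in every library, and their summed level was 58274 to 77114 CPM. Cumulus and granulosa markers were present at 1974 and 1415 CPM in K27R, 2091 and 2041 CPM in R26K, and 964 and 1817 CPM in H3.3, with 5 to 16 of 20 detected. Serpine2 supplied most of that sum, Lhcgr had no count, and Foxl2 and Fshr, which define granulosa cells, had counts in R26K replicate 1 alone, at 0.65 and 0.30 CPM. Other cumulus markers were well above the floor in some libraries: Tnfaip6 had 86.8 and 0 CPM in K27R, 29.4 and 11.02 CPM in R26K, and 0 and 186 CPM in H3.3, and Cyp19a1 had 43.6 and 15.5 CPM in K27R, 28.3 and 43.7 CPM in R26K, and 0 and 143 CPM in H3.3. The part of these cells in the results was not tested.

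Proteasome mRNA as a whole took a similar, small share of every library. The 50 genes summed to 5318 and 5514 CPM in the K27R libraries, 5367 and 5245 CPM in the R26K libraries, and 5011 and 5353 CPM in the H3.3 libraries, or 0.501% to 0.551% of a library. The groups overlapped in this sum. Psma7 alone supplied 27.5% and 22.0% of it in K27R, 17.9% to 19.5% in R26K, and 29.7% and 26.7% in H3.3. Counts were found in all 6 libraries for 32 members and in no library for 3: the inducible subunits Psmb9 and Psmb10 and the chaperone Psmg2. The 43 tested genes include 11 with no count in at least 1 library, and the 7 not tested were Psma8, Psmb8, Psmb9, Psmb10, Psmb11, Psme1 and Psmg2.

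**Figure D1:**
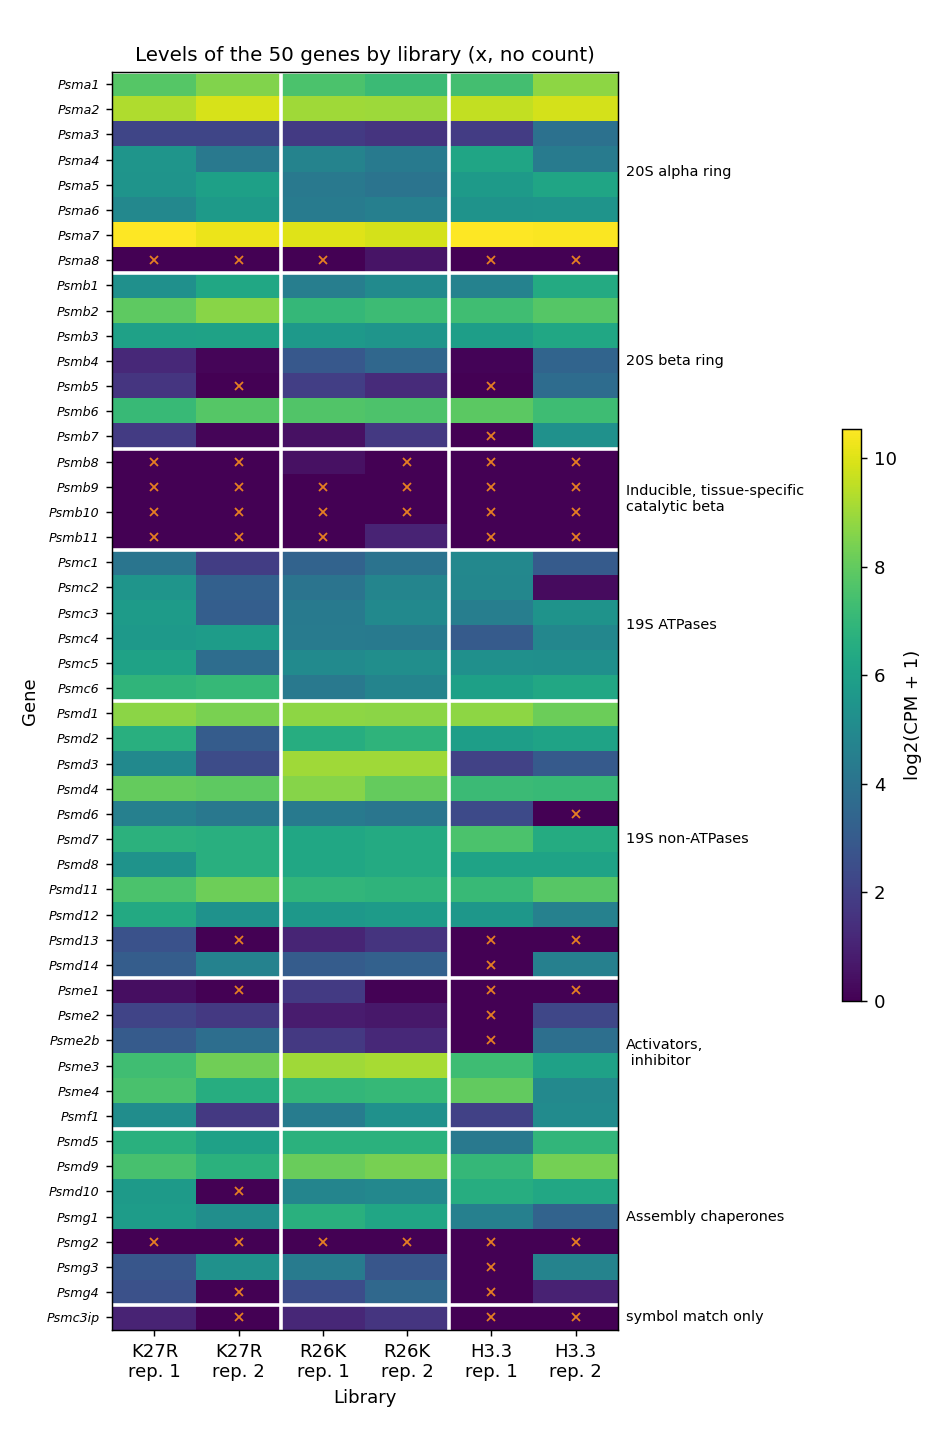
Level of each of the 50 genes (rows, grouped by role) in each of the 6 libraries (columns) as log2(CPM + 1), with a cross where a library had no count. The bright rows Psma7, Psma2, Psmd1, Psme3 and Psma1 had the highest mean CPM, and 32 rows carry no cross.

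Levels between subunits were compared per length, as CPM per kilobase of the principal coding transcript (RPKM). Subunits that sit together in 1 particle in equal number had very unequal mRNA levels. Psma7 had the highest mean over the 6 libraries, 1382 RPKM, followed by Psmb2 at 252, Psma2 at 247, Psmb6 at 237, Psma1 at 209 and Psmd4 at 182 RPKM. Psmb2, Psma2 and Psmb6 overlapped across libraries, and the order among them is not beyond their spread. The lowest subunits of the constitutive particle were Psmd13 at 0.703, Psma3 at 1.67 and Psmb5 at 3.47 RPKM. Parts of this order depend on the length used. With the length of all annotated exons, Psme3 (101) stood above Psmd4 (86.2) and Psma1 (85.1). Psmb7 (2.18) and Psmb4 (2.38) then stood below Psmb5 (3.47).

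Within the alpha ring, Psma7 was 829 times the level of Psma3 by the ratio of means, and between 315 and 1732 times in the single libraries. With the length of all annotated exons in place of 1 transcript, the ratio was 338. Psma3 is 1 of 8 members with a pseudogene at least 95% identical over 200 or more bases (the others are Psma4, Psma5, Psmb3, Psmb5, Psmc1, Psmd2 and Psmd11). How reads that fit several places were treated is not given in the sources used here, so the levels of these 8 are uncertain. Psme2b, a close copy of Psme2, and Psme2 itself are uncertain for the same reason.

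**Figure D2:**
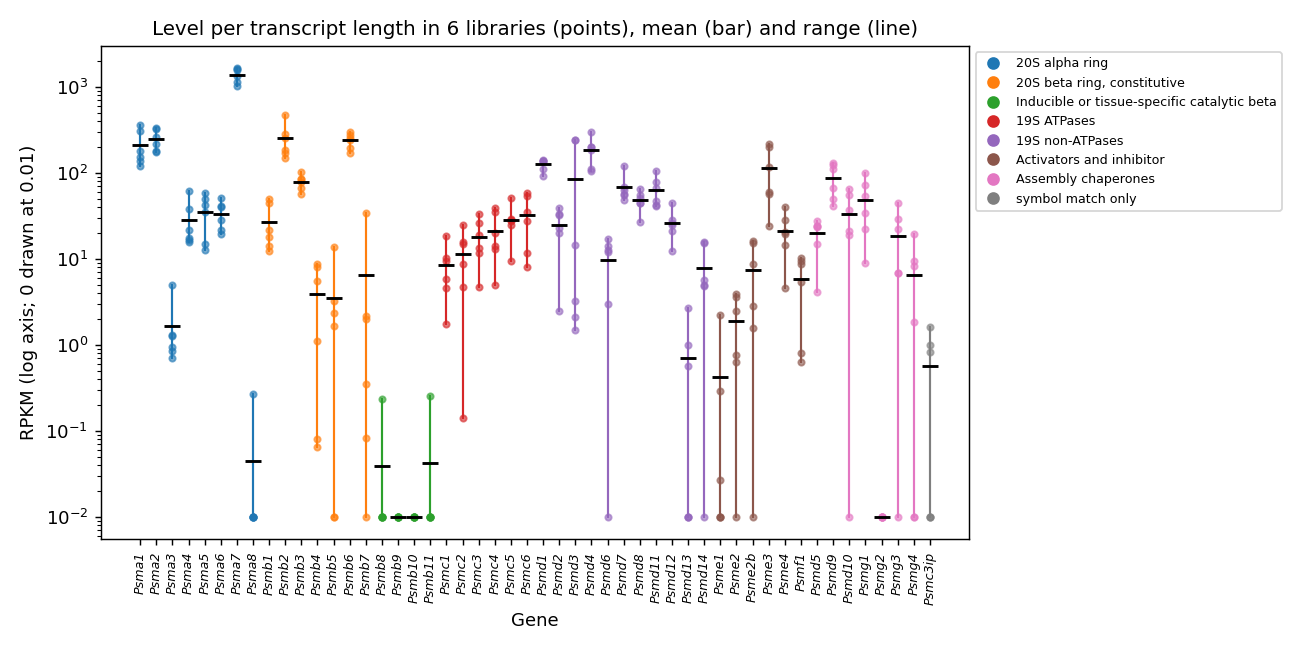
Level per kilobase of transcript (RPKM, log axis) for each gene: points are the 6 libraries, black bars their mean and lines their range, and colours mark roles. Psma7 at a mean of 1382 RPKM stands above all others, while Psma3 and Psmd13 lie at 1.67 and 0.703 RPKM.

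The first question was whether proteasome mRNA differed between R26K eggs and H3.3 eggs. Among the members with the smallest p, Psmd3, Psme3, Psmd4 and Psmg1 were higher in both R26K libraries than in both H3.3 libraries, and Psmc6 and Psma7 were lower in both. None of the 43 tested members passed the threshold of 0.05 after Benjamini-Hochberg adjustment of edgeR's quasi-likelihood test over all genes, where 0.619% of all tested genes passed. At an unadjusted p under 0.05 there were 7 members (16.3%), against 21.7% of all tested genes. DESeq2, the other test run, called 7 of the 40 members to which it gave an adjusted p against 18.7% of all genes; 4 (Psmd3, Psme3, Psmg1 and Psmd4) were higher in R26K, against 13.8%, and 3 (Psmc6, Psma7 and Psma5) lower, against 4.84%. The 2 R26K libraries lay above both H3.3 libraries for 11 members (25.6%), against 44.9% of all tested genes, and below both for 12 (27.9%), against 15.2%. Among the 2858 genes averaging 50 CPM or more over all 6 libraries, 6 of 19 members lay above, against 36.6% of genes, and 7 lay below, against 31.1%. A gene low in H3.3 can enter this set through R26K alone. Psmd3 did so, with means of 17.8 CPM in K27R, 521 in R26K and 5.04 in H3.3. Psmg1 did so too, with 45.4, 89.2 and 16.1 CPM, and both are among the 6. When only the 2858 genes were tested, edgeR called 2 of the 19 members, Psmd3 and Psme3, against 12.7% of the genes.

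Psmd3, a non-ATPase subunit of the 19S lid (chr11:98682554-98695979, plus strand), had the smallest p of the 43 and, among those with counts in both groups, the largest difference. Its level was 31.1 and 4.46 CPM in the K27R libraries, 521 and 521 CPM in the R26K libraries, and 3.21 and 6.87 CPM in the H3.3 libraries. The R26K libraries were nearly equal and far above the other 4, which overlapped each other. These levels rest on 382 and 47 reads in K27R, 19218 and 17258 in R26K, and 42 and 81 in H3.3. The fitted log2 difference between R26K and H3.3 was 6.69 ± 1.09 (SE, n = 2 libraries each), or 103-fold, with an adjusted p of 0.0640 in edgeR's test.

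Among the genes of at least 50 CPM, Psmd3 ranked 12 of 2858 from the top of this comparison. It entered that set only through its R26K level, so neither this rank nor a call within the set is separate support. Psmd3 passed the threshold with DESeq2 (adjusted p = 5.4e-12) and in edgeR's test with no filter on low counts (adjusted p = 0.00765). In edgeR's test it also passed with only genes of at least 10 CPM (0.0461) or 50 CPM (0.0168). It missed the threshold with other scalings, robust spread or thinned libraries (0.0567 to 0.0696), with only the groups compared (0.101), and without either H3.3 library (0.119 and 0.127) or either K27R library (0.102 and 0.1005). Without R26K replicate 1 or 2 the adjusted p was 6.3e-08 and 8.8e-08, but R26K then has 1 library, which is assumed to vary like the other groups, so these values say nothing of the spread within R26K. With a correction of the libraries for GC content and transcript length the log2 difference was 4.75, with an adjusted p of 0.122. GC content moved with this comparison: over the genes of at least 50 CPM, cut by GC into 4 equal bins, the median log2 difference was -0.60 in the bin poorest in GC and 0.82 in the richest, which spans 51.8% to 67.8% GC, and Psmd3 has 58.3%. Gm12356, a gene outside the count table, overlaps 17 bases of the exons of Psmd3 on the opposite strand. The nearest neighbours of Psmd3 within the count table were looked up after its values were seen. Gsdma2, Gsdma and Csf3 had no counts in any library and so show no pattern. Med24 had 25.0 and 31.2 CPM in K27R, 8.03 and 15.4 CPM in R26K, and 0 and 0.255 CPM in H3.3. Like Psmd3, Med24 was higher in both R26K libraries than in both H3.3 libraries, but unlike Psmd3 it was highest in K27R.

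Psme3, which encodes PA28 gamma, the nuclear activator that opens the 20S barrel without ATP, had 159 and 308 CPM in the K27R libraries, 532 and 574 CPM in the R26K libraries, and 152 and 64.7 CPM in the H3.3 libraries. The 3 groups did not overlap. Its log2 difference between R26K and H3.3 was 2.35 ± 0.53 (adjusted p = 0.127). It passed the threshold in edgeR's test with no filter on low counts (adjusted p = 0.0465), among genes of at least 50 CPM (0.0331) and with DESeq2 (0.000925). It missed the threshold among genes of at least 10 CPM (0.0791), with other scalings, robust spread or thinned libraries (0.119 to 0.143), with only the groups compared (0.109), and without either K27R library (0.107 and 0.1005). Without H3.3 replicate 1 the log2 difference was 3.11 (adjusted p = 0.0735) and without H3.3 replicate 2 it was 1.86 (0.168). Without R26K replicate 1 or 2 the adjusted p was 0.00663 and 0.0141, with the lone R26K library again assumed to vary like the other groups. After the GC and length correction it was 1.85 with an adjusted p of 0.276.

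Psmd4, the ubiquitin receptor of the 19S particle, had 263 and 246 CPM in K27R, 392 and 268 CPM in R26K, and 146 and 138 CPM in H3.3. Both substituted groups lay above H3.3. The log2 difference of R26K from H3.3 was 1.22 ± 0.32 (adjusted p = 0.167), and with the GC and length correction it was 0.33. Psmg1, a chaperone of alpha-ring assembly, had 55.2 and 35.7 CPM in K27R, 103 and 75.2 CPM in R26K, and 23.0 and 9.25 CPM in H3.3, and these groups did not overlap. Its log2 difference of R26K from H3.3 was 2.47 ± 0.83 (adjusted p = 0.213).

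Psmc6, an ATPase of the 19S base, stood the other way. It had 119 and 131 CPM in K27R, 18.1 and 25.8 CPM in R26K, and 61.9 and 78.2 CPM in H3.3, with no overlap between any of the 3 groups. The log2 difference of R26K from H3.3 was -1.68 ± 0.56 (adjusted p = 0.213). Psmc6 is poor in GC, at 37%, and with the GC and length correction the difference was -0.45.

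**Figure D3:**
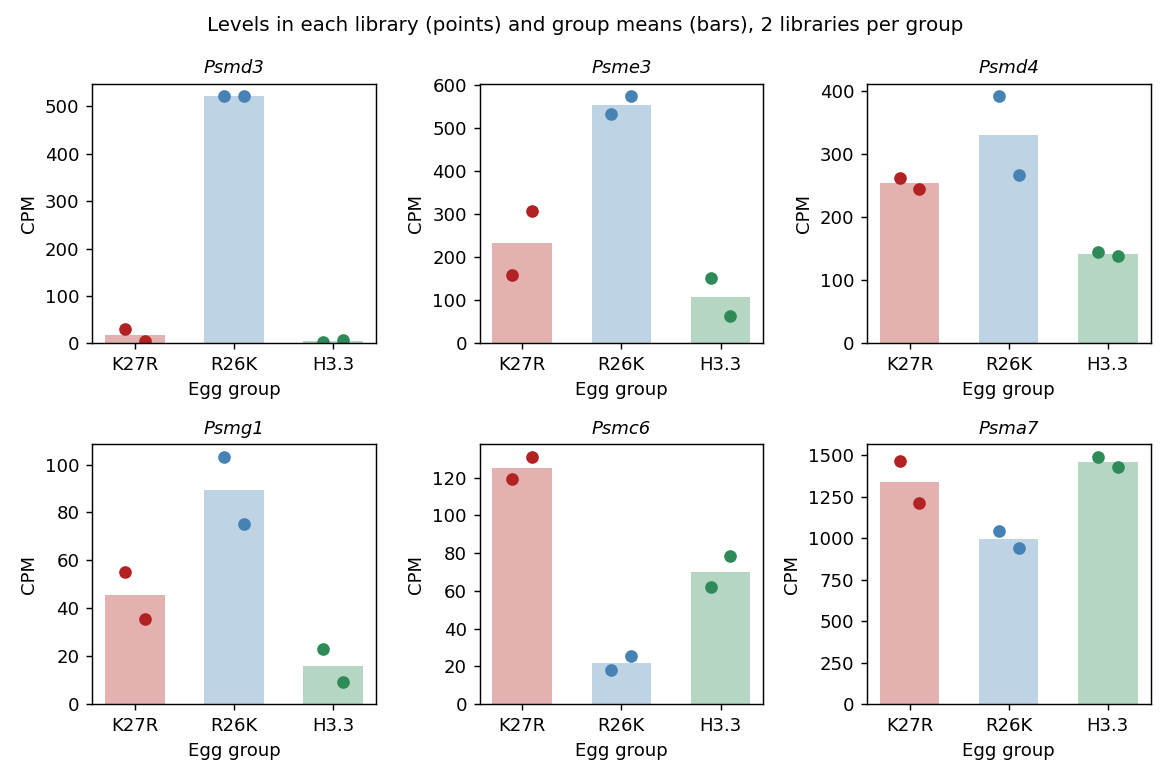
Level in CPM of the 6 members with the smallest p between R26K and H3.3, with 1 point per library, bars at the group means and 2 libraries per group. Psmd3 reaches 521 CPM in both R26K libraries and at most 31.1 CPM elsewhere, while Psmc6 is lowest in R26K, at 18.1 and 25.8 CPM.

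All 7 tested alpha subunits had a log2 difference below 0 between R26K and H3.3, where 61.3% of all tested genes lay above 0. Their median was -1.01, where the median of all 10667 tested genes was 0.66 and that of the 43 members was -0.15. For the 19 members of at least 50 CPM the median was 0.01, beside 0.03 for such genes, and without H3.3 replicate 2 that of the 43 was 0.18. None of the 7 was called by edgeR, where Psma7 and Psma2 had an unadjusted p under 0.05, and DESeq2 called 2, Psma7 and Psma5. Psma7, which forms the alpha ring and is the most abundant of the set, had 1464 and 1212 CPM in K27R, 1045 and 941 CPM in R26K, and 1489.5 and 1427 CPM in H3.3. Its R26K libraries lay below the other 4, with a log2 difference from H3.3 of -0.55 ± 0.21 (adjusted p = 0.213). Psma2, its neighbour in level, had 619 and 964 CPM in K27R, 526 and 509 CPM in R26K, and 764 and 938 CPM in H3.3, with -0.72 ± 0.29 (adjusted p = 0.227), so that R26K again lay lowest.

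The summed alpha ring was 2420 and 2680.0 CPM in K27R, 1822 and 1654 CPM in R26K, and 2587 and 2941 CPM in H3.3. Psma7 and Psma2 together supplied most of this sum in every library. All 7 tested alpha subunits stayed below 0 between R26K and H3.3 with relative log scaling and with libraries thinned to equal depth. The same held with upper-quartile scaling, which put the median of all tested genes at 0.47. With the GC and length correction 1 of 7 was above 0 and the median was -0.58. Without H3.3 replicate 1 the median was -1.01 with 1 of 7 above 0, and without H3.3 replicate 2 it was -0.59 with all 7 below 0. Psma3, the least abundant tested alpha subunit, had 3.66 and 3.60 CPM in K27R, 2.41 and 2.02 CPM in R26K, and 2.68 and 14.1 CPM in H3.3. Psma8, the alpha subunit of testis, had 15 reads in R26K replicate 2 and none elsewhere.

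The 7 constitutive beta subunits summed to 490.5 and 768 CPM in K27R, 413 and 427 CPM in R26K, and 477 and 592 CPM in H3.3. Of the 3 that carry the catalytic sites only Psmb6, the caspase-like subunit, was well covered, with 137 and 219 CPM in K27R, 202 and 190.0 CPM in R26K, and 237 and 153 CPM in H3.3. The groups overlapped, and the log2 difference of R26K from H3.3 was 0.01 ± 0.39, with a 95% interval from -0.95 to 0.96. Psmb5, the chymotrypsin-like subunit, had 2.11 and 0 CPM in K27R, 2.93 and 1.48 CPM in R26K, and 0 and 12.2 CPM in H3.3. Psmb7, the trypsin-like subunit, had 2.52 and 0.09 CPM in K27R, 0.41 and 2.33 CPM in R26K, and 0 and 39.4 CPM in H3.3. For both, the replicates of 1 group differed by more than the groups. The exons of Psmb5 and Psmb7 overlap those of another gene in the table, as do those of 8 further members, and the library kit does not mark the strand.

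The inducible and tissue-specific catalytic subunits were near or at 0. Psmb8 had 14 reads in R26K replicate 1, and Psmb11, the thymus subunit, had 36 reads in R26K replicate 2. Psmb9 and Psmb10 had none in any library, where 3 reads would stand for at most 0.284 CPM. Markers of immune and blood cells, in which the inducible subunits are made, had counts for 3 and 2 of 16 genes in K27R, 2 and 3 in R26K, and 1 and 1 in H3.3, with sums of 4.29 to 49.4 CPM. Ptprc and Cd74, which define those cells, had no counts, but H2-Aa, C1qb and Cd68 did. H2-Aa reached 32.97 CPM in H3.3 replicate 1 and 32.3 CPM in K27R replicate 2. C1qb had 7.16 and 17.07 CPM in K27R, and Cd68 had 11.03 CPM in H3.3 replicate 2. The part of such cells in the results was not tested.

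**Figure D4:**
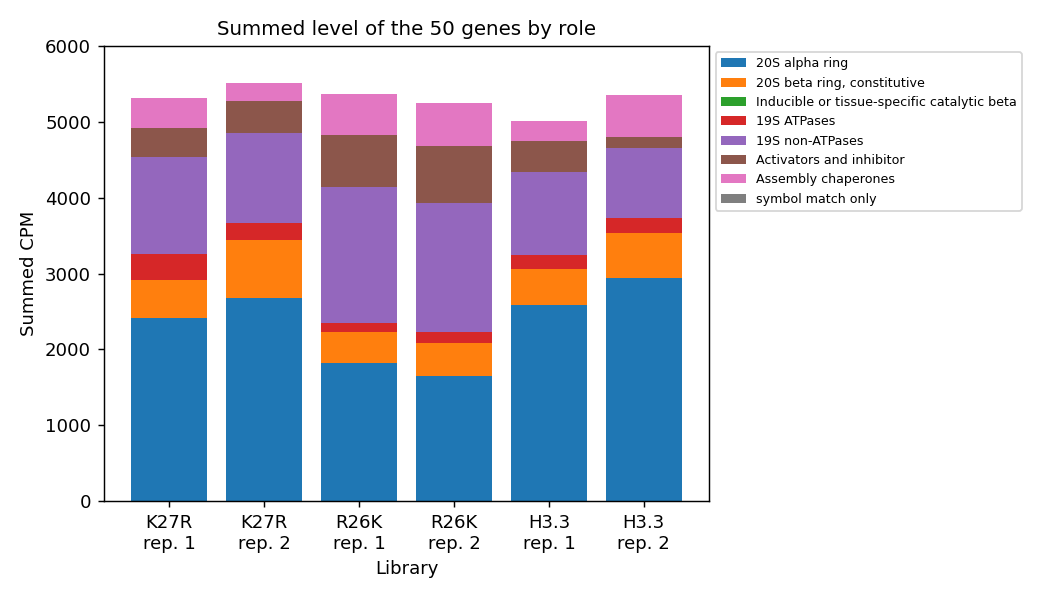
Summed CPM of the 50 genes in each library, stacked by role. The stacks end between 5011 and 5514 CPM, while the alpha ring (bottom) takes 1654 and 1822 CPM in R26K and at least 2420 CPM in the other 4 libraries.

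The 6 ATPases of the 19S base summed to 350 and 218 CPM in K27R, 114 and 153 CPM in R26K, and 187 and 193 CPM in H3.3. The R26K sums were the lowest, but this order rests on Psmc6. That gene alone supplied 119 and 131 CPM in K27R, 18.1 and 25.8 CPM in R26K, and 61.9 and 78.2 CPM in H3.3. With Psmc6 taken off, the sums of the 3 groups overlapped. Between R26K and H3.3, 2 of the 6 had a log2 difference above 0 and 4 below. By mean RPKM, Psmc6 was the highest of the 6, at 32.4, and Psmc1 the lowest, at 8.36. With the length of all annotated exons, Psmc5 (26.6) stood above Psmc6 (20.7), and Psmc2 (4.06) stood below Psmc1 (6.88). Psmc1 had 16.3 and 2.75 CPM in K27R, 9.33 and 15.0 CPM in R26K, and 29.1 and 7.21 CPM in H3.3.

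The 11 non-ATPases among the members summed to 1274 and 1183 CPM in K27R, 1790 and 1696 CPM in R26K, and 1086 and 924 CPM in H3.3. Without Psmd3 the sums were 1243 and 1179 CPM in K27R, 1269 and 1175 CPM in R26K, and 1083 and 917 CPM in H3.3. Psmd1, the large scaffold of the base, had 423 and 345 CPM in K27R, 430.2 and 423 CPM in R26K, and 434 and 287 CPM in H3.3. Its groups R26K and H3.3 overlapped, with a log2 difference of 0.24 ± 0.30 and a 95% interval from -0.48 to 0.97. Psmd13, a lid subunit, had 5.29 and 0 CPM in K27R, 1.14 and 1.96 CPM in R26K, and none in H3.3. Its mean in R26K was 6.41 times the floor of 3 counts per library in H3.3, which covers counting error only. Replicates can differ by far more, as for Psmb7 with 0 and 464 reads in H3.3, so this is no lower bound. The fitted log2 difference of Psmd13 between R26K and H3.3 had a 95% interval from -1.66 to 17.5, which included no difference. The exons of Psmd13 overlap Sirt3 on the opposite strand.

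Psmd6, another lid subunit, had 23.3 and 17.6 CPM in K27R, 19.6 and 16.7 CPM in R26K, and 4.13 and 0 CPM in H3.3. Both substituted groups lay above H3.3, with a log2 difference of 3.13 ± 2.45 for R26K (adjusted p = 0.509) and an adjusted p of 0.671 for K27R. Psmd14, the deubiquitinase of the lid, had 7.64 and 24.4 CPM in K27R, 7.35 and 8.73 CPM in R26K, and 0 and 23.3 CPM in H3.3. It was undetected in the first H3.3 library and near the highest K27R value in the second.

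The activators and the inhibitor Psmf1 summed to 388 and 419 CPM in K27R, 684 and 747 CPM in R26K, and 412 and 145 CPM in H3.3. Without Psme3 the sums were 229 and 111 CPM in K27R, 152 and 173 CPM in R26K, and 259 and 80.1 CPM in H3.3, and the groups overlapped. Psme1, which pairs with Psme2 in the activator PA28 of immune cells, had 4 reads in K27R replicate 1, 91 and 1 in R26K, and none elsewhere. Per length, Psme3 was 59.5 times the level of Psme2 by the ratio of means, between 6.25 and 343 times in the 5 libraries with Psme2 counts, and 98.6 times with the length of all annotated exons.

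The assembly chaperones summed to 395 and 246 CPM in K27R, 543 and 565 CPM in R26K, and 263 and 559 CPM in H3.3. By mean RPKM, Psmd9, a chaperone of the 19S base, was the highest of these. It had 174 and 107 CPM in K27R, 284 and 336 CPM in R26K, and 129 and 321 CPM in H3.3. With the length of all annotated exons, Psmg1 (37.4) and Psmd10 (32.0) stood above Psmd9 (31.1). Gm26745, a gene outside the count table, overlaps exons of Psmd9 on the opposite strand, and its part in the level of Psmd9 was not tested. Psmd10, known as gankyrin, had 52.0 and 0 CPM in K27R, 27.2 and 29.7 CPM in R26K, and 93.6 and 79.7 CPM in H3.3. It was the 1 member below both H3.3 libraries in K27R as well as in R26K. Psmg3 had 6.02 and 38.8 CPM in K27R, 19.8 and 5.98 CPM in R26K, and 0 and 25.5 CPM in H3.3, so that replicates spanned the whole range. Psmc3ip, the gene outside the proteasome, had 1.06 and 0 CPM in K27R, 1.27 and 2.08 CPM in R26K, and none in H3.3. Its mean in R26K was 6.94 times the floor in H3.3, again for counting error only and so no lower bound. Its fitted log2 difference between R26K and H3.3 had a 95% interval from -0.0061 to 16.1, which included no difference.

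**Figure D5:**
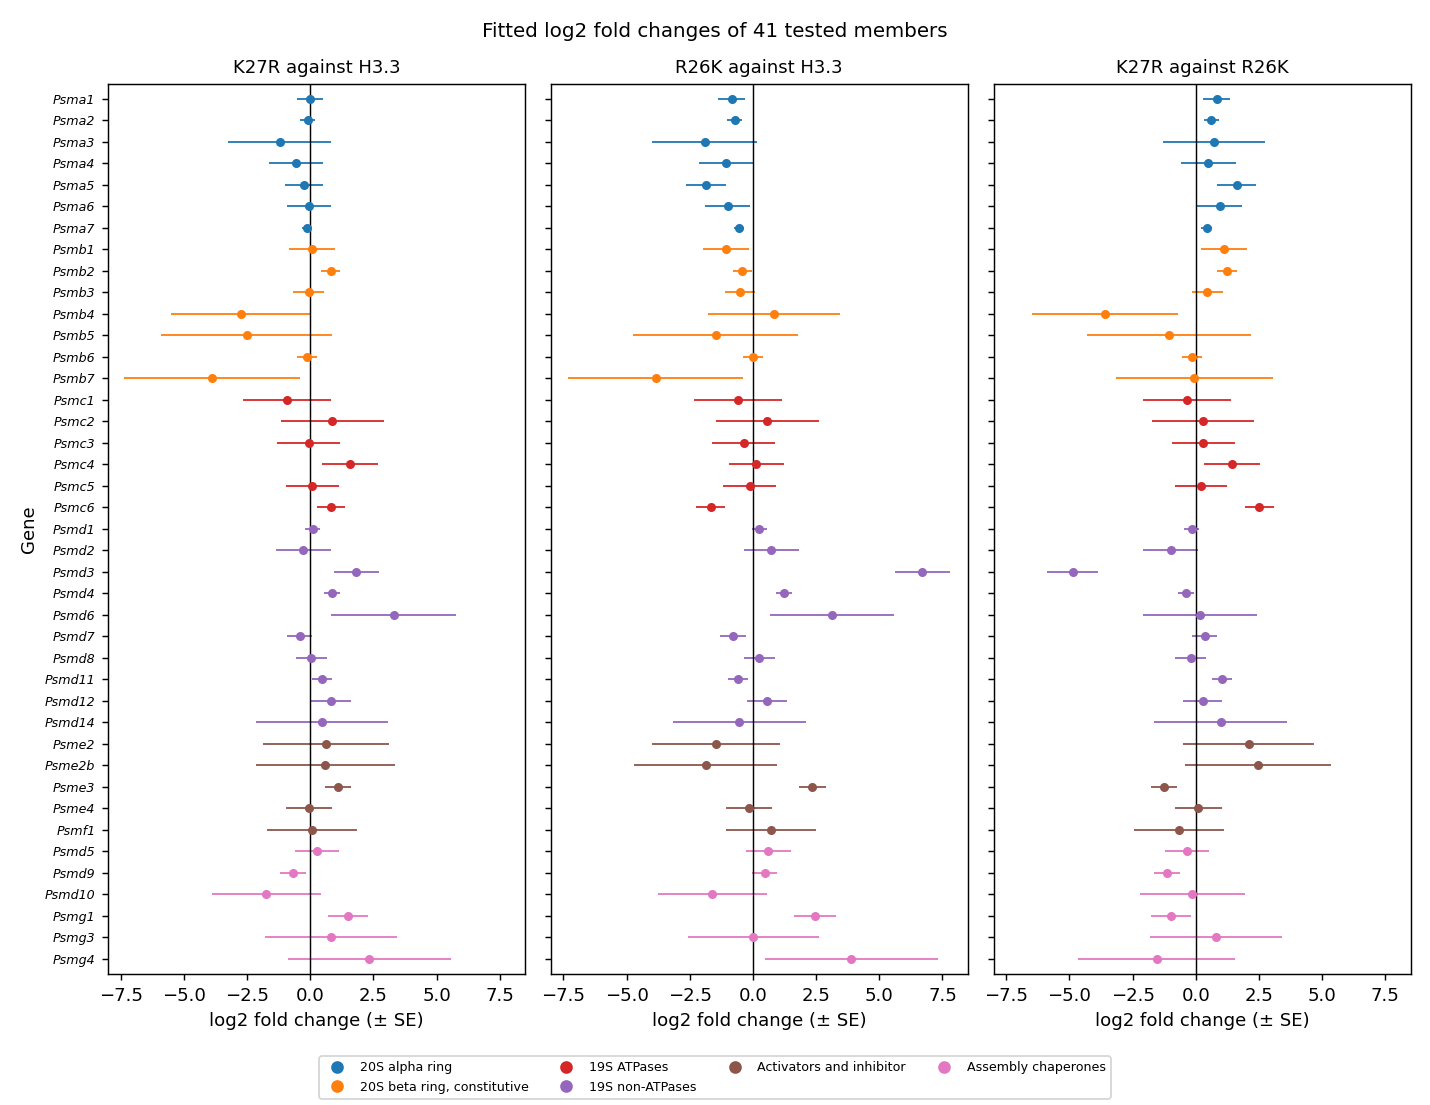
Fitted log2 fold changes with their SE for 41 tested members in the 3 comparisons (panels, shared scale), coloured by role; Psmd13 and Psmc3ip, without counts in H3.3, are left out. In the middle panel the 7 alpha subunits lie left of 0 and Psmd3 at 6.69, and in the right panel the alpha subunits lie right of 0 and Psmd3 at -4.87.

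The next comparison, of K27R with H3.3 eggs, shares the H3.3 libraries with the one above. None of the 43 members was called by edgeR, where 0% of all 10667 genes were called, and DESeq2 called none of the 40 members, against 7.6% of all genes. At an unadjusted p under 0.05 there was 1 member (2.33%), Psmd4, against 7.12% of all genes. Its log2 difference was 0.84 ± 0.32 (edgeR adjusted p = 0.522). The members' median log2 difference was 0.07, beside 0.12 for all tested genes. Without H3.3 replicate 2 the members' median was 0.80, beside 0.42 for all tested genes. The K27R libraries lay above both H3.3 libraries for 7 members (16.3%: Psme3, Psmd6, Psmc6, Psmg1, Psmd4, Psmb2 and Psmc4), against 15.9% of all genes, and below both for Psmd10 alone (2.33%), against 9.62%. Among genes of at least 50 CPM, 5 of 19 members lay above, against 14.7% of genes, and 0 below, against 15%.

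After Psmd4 the smallest p-values belonged to Psme3, at 1.10 ± 0.51, Psmd13, Psmb2, at 0.81 ± 0.38, Psmc3ip and Psmd3, at 1.82 ± 0.88 on the log2 scale, all with an adjusted p of 0.522 in edgeR's test. Psmb2, a non-catalytic beta subunit, had 245 and 406 CPM in K27R, 129 and 147 CPM in R26K, and 156 and 215 CPM in H3.3, and its K27R libraries were the highest 2 of the 6. Without K27R replicate 1 the difference of Psmd3 was -0.18. That of Psme3 was 0.56 without K27R replicate 2, 0.62 without H3.3 replicate 2 and 1.87 without H3.3 replicate 1. All 7 alpha subunits had a log2 difference below 0 between K27R and H3.3, where 53.7% of all tested genes lay above 0, and their median was -0.12. With upper-quartile scaling 6 of 7 were below 0, without K27R replicate 1 there were 4 and without H3.3 replicate 2 there were 3.

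Between K27R and R26K, which compares the neighbouring substitutions directly, none of the 43 members was called by edgeR, against 0.375% of all tested genes. At an unadjusted p under 0.05 there were 5 members (11.6%), against 13.2% of all genes: Psmd3 and Psme3 lower in K27R, and Psmc6, Psmb2 and Psmd11 higher. DESeq2 called 2 of 40, against 8.83% of all genes: Psmc6 was higher in K27R, against 2.9%, and Psmd3 lower, against 5.93%. The K27R libraries lay above both R26K libraries for 15 members (34.9%), against 17.5% of all genes, and below both for 9 (20.9%), against 36.3%. Among genes of at least 50 CPM, 8 of 19 members lay above, against 31.8% of genes, and 7 below, against 34.4%. When only these genes were tested, edgeR called 2 of the 19 members, Psmd3 lower and Psmc6 higher in K27R, against 9.83% of the genes. Psmd3 and Psmg1, both among the 7 below, entered this set only through R26K. The members' median log2 difference was 0.28, beside -0.32 for all tested genes, and with upper-quartile scaling it was 0.50, beside -0.10. Without K27R replicate 1 it was -0.30, beside -1.63.

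Between K27R and R26K, Psmd3 ranked 15 of 2858 from the bottom among genes of at least 50 CPM, a set it entered only through R26K. Its log2 difference was -4.87 ± 0.99 (adjusted p = 0.145). Without K27R replicate 1 the value was -6.87, and with the GC and length correction it was -3.27. Psmc6 was at 2.51 ± 0.58 (adjusted p = 0.185), and at 1.40 with that correction. Psmb2 was at 1.24 ± 0.38 (adjusted p = 0.345). Psmd11, a lid subunit, had 188 and 299 CPM in K27R, 121 and 116 CPM in R26K, and 135 and 220 CPM in H3.3, with 1.04 ± 0.41 between K27R and R26K (adjusted p = 0.346). Its K27R and H3.3 libraries overlapped and its R26K libraries lay lowest. Psme3 was at -1.25 ± 0.51 (adjusted p = 0.376) and Psmd9 at -1.14 ± 0.51 (adjusted p = 0.425), or -0.35 with the GC and length correction.

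All 7 alpha subunits had a log2 difference above 0 between K27R and R26K, where 41.9% of all tested genes did, with a median of 0.71, and 6 of 7 with the GC and length correction, when the median was 0.23. This comparison shares the R26K libraries with the first. Of the ATPases 5 of 6 were above 0, but 2 of 6 without K27R replicate 1, with a median of -1.39, and 3 of 6 without R26K replicate 1. Of the chaperones 5 of 6 were below 0, and 4 of 6 with upper-quartile scaling.

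Replicates of the R26K group lay closest to each other. The median absolute difference in log2(CPM + 1) between the libraries of a group, over the 43 tested members, was 0.95 in K27R, 0.22 in R26K and 1.09 in H3.3, beside 1.04, 0.44 and 0.78 for all tested genes. For the 19 members of at least 50 CPM it was 0.66 in K27R, 0.15 in R26K and 0.63 in H3.3. The R26K libraries were also the deepest, and the part of depth in this was not tested.

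The wider pathway was taken from a list of 45 genes that deliver substrates to the proteasome, assemble it or regulate it, all of them tested. Zfand5, a zinc-finger protein that binds the 26S proteasome and stimulates its activity, was the 1 gene of the list called by edgeR, in 2 comparisons. It had 59.2 and 60.5 CPM in the K27R libraries, 692 and 595 CPM in the R26K libraries, and 123 and 99.1 CPM in the H3.3 libraries, and the groups did not overlap. It was higher in R26K than in H3.3 by 2.54 ± 0.30 on the log2 scale (5.80-fold, adjusted p = 0.0329) and lower in K27R than in R26K, at -3.43 ± 0.31 (adjusted p = 0.0207). The call against H3.3 was lost with the GC and length correction (2.99, adjusted p = 0.0624), with only the groups compared in the fit (0.107), and without H3.3 replicate 1 (0.0501) or 2 (0.0749) or K27R replicate 1 (0.107) or 2 (0.101). The call between K27R and R26K was lost without H3.3 replicate 2 (adjusted p = 0.0503), K27R replicate 1 (0.151) or K27R replicate 2 (0.266).

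No gene of the list was called between K27R and H3.3, where 5 of 45 had an unadjusted p under 0.05, against 7.12% of all tested genes, and DESeq2 called 3, against 7.6%. The smallest p-values there belonged to Zfand5, at -0.89 ± 0.28 on the log2 scale, and Huwe1, a large ubiquitin ligase, both with an adjusted p of 0.522 in edgeR's test. Huwe1 had 33.6 and 9.67 CPM in K27R, 23.4 and 10.5 CPM in R26K, and 0.153 and 0 CPM in H3.3, so both substituted groups lay above H3.3. The median log2 difference of the list was 0.29 between K27R and H3.3, 1.08 between R26K and H3.3, and -0.95 between K27R and R26K. Set beside these stood 0.12, 0.66 and -0.32 for all tested genes and 0.07, -0.15 and 0.28 for the proteasome members.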

How the data were processed

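Polyadenylated RNA of metaphase II eggs was read as single reads of 50 bases, from cDNA made with the SMARTer Ultra Low kit and libraries made with the Nextera kit, per the labels' protocols. The submitters' processing notes name the build mm10 and the tools featureCounts, SAMtools 1.3, TopHat2 2.1.0 and cutadapt 1.9.1. Neither the annotation nor the settings for strand and for reads with several matches are given in the sources used here. Whole-number counts per gene were deposited by the authors without normalization, in 6 columns, of which 0 were left out.

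From the counts, CPM were computed after scaling by trimmed means of M values, and divided by the principal coding transcript's length in GENCODE M21 (23700 of 24062 symbols matched, all 50 members among them) for RPKM. Genes were kept by filterByExpr and tested with edgeR 4.0.16 under R 4.3.3. The model had 3 group means over the 6 libraries, 3 residual degrees of freedom and a common dispersion of 1.63. Tests were two-sided, adjusted by Benjamini-Hochberg over all 10667 genes, with a threshold of 0.05. An SE is the log2 difference divided by the square root of F. DESeq2 1.42.0 was an alternative, beside other scalings, filters, thinning, robust spread, a GC and length correction by loess and leaving out each library. The edgeR fit was also run on simulated counts, with a lower dispersion than that of the data and large changes. That run checked the code and does not measure power or error rates in these data.

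Values in every library are given for the 6 tested members with the smallest p in each comparison, the highest and lowest member per length of each role, members of at least 10 CPM with a library at 0, and the called or lowest-p genes of the pathway list. The members and lists were chosen with earlier results of these data known.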

Additional observations from a re-analysis of the deposited data

How the results depend on the processing

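Members called numbered 0 between K27R and H3.3 under every alternative run. Between R26K and H3.3, with 0 in the fit described, they numbered 7 with DESeq2, 2 with no filter on low counts, 1 among genes of at least 10 CPM, 2 among genes of at least 50 CPM and 0 to 2 when 1 library was left out. Between K27R and R26K they numbered 2 with DESeq2, 1 with no filter, 2 among genes of at least 50 CPM and 0 to 1 with 1 library left out. For the pathway list, with 1 call in each R26K comparison, calls against H3.3 numbered 9 with DESeq2, 2 with no filter, 2 among genes of at least 50 CPM, 0 with only the groups compared, 0 with the GC and length correction and 0 to 2 with 1 library left out. Between K27R and R26K they numbered 2 with DESeq2, no filter, at least 10 CPM or at least 50 CPM, and 0 to 2 with 1 library left out, and between K27R and H3.3 they numbered 3 with DESeq2. Of all genes with an adjusted p, the share called between R26K and H3.3 was 18.7% with DESeq2, 1.69% with no filter, 2.49% at 10 CPM, 12.7% at 50 CPM and 0% to 1.86% with 1 library left out, and between K27R and R26K it was 8.83%, 1.1%, 1.55%, 9.83% and 0% to 1.32% in the same order. The members' median log2 difference between K27R and R26K, 0.28, was 0.50 with upper-quartile scaling, -0.15 among genes of at least 50 CPM and -0.30 to 0.43 with 1 library left out. Between K27R and H3.3 it was -0.0047 to 0.80 with 1 library left out. With the replicate number as a block, members called numbered 2 between R26K and H3.3 and 1 between K27R and R26K, the pathway list 3 and 2, against 2.44% and 1.83% of all genes, and the members' median between K27R and R26K was -0.074. Same-numbered libraries did not deviate together over all tested genes (correlations -0.0086 to 0.021 over 10667 genes). Such a correlation can miss a batch that moved only some genes, so whether the numbers pair the libraries was not settled. The cause of these moves was not tested. With 2 libraries a group and 3 residual degrees of freedom, differences of less than the intervals given could not be seen.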

Other observations

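Pathway genes outside the rule for named genes were looked at after their values were seen. Akirin2, which carries proteasomes into the nucleus, had 326 and 257 CPM in K27R, 1101 and 1499 CPM in R26K, and 396 and 527 CPM in H3.3, so that the R26K libraries lay above the other 4. Its log2 difference was 1.49 ± 0.30 between R26K and H3.3 (edgeR adjusted p = 0.0955) and -2.16 ± 0.30 between K27R and R26K (edgeR adjusted p = 0.0574). Nfe2l1, the transcription factor that raises proteasome genes when the proteasome is inhibited, had 81.8 and 54.0 CPM in K27R, 107 and 214 CPM in R26K, and 163 and 135 CPM in H3.3. Its K27R libraries were the lowest 2 of the 6, with -1.13 ± 0.50 between K27R and H3.3 (edgeR adjusted p = 0.522). Pomp, the chaperone of beta-ring assembly, had 66.7 and 109.6 CPM in K27R, 52.2 and 52.9 CPM in R26K, and 73.1 and 67.4 CPM in H3.3.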
